A study of Homo sapiens with 24 samples.

Results

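The genes described here are the proteasome genes of the array, 41 in all, which were chosen by name: each has a single annotated symbol that starts with PSM, followed by a letter from A to G and a number. They are 41 of the 11963 genes that carry 1 symbol, and all 41 were among the 9966 genes that passed the filter on dim signals. Of the 41, 16 belong to the 20S core (PSMA and PSMB symbols) and 25 to the regulators (PSMC, PSMD, PSME, PSMF and PSMG symbols). The pattern also takes in PSMC3IP, a factor of homologous recombination, and PSME3IP1, a nuclear protein that binds PSME3, neither of which is a proteasome subunit. The choice of genes used names and no measured values, but it was set with earlier results of these data known. For the 17 genes with several probe sets, the one of highest mean over the 24 arrays was used. PSMA6 and PSME2 lie on probe sets with several symbols and were not analysed here, nor were PSMC5, PSMD7 and PSMD13.

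The proteasome is the barrel-shaped protease that degrades ubiquitin-tagged proteins in the cytosol and nucleus. Its 20S core is built from rings of alpha subunits, which gate the entry, and rings of beta subunits, which hold the catalytic sites PSMB5, PSMB6 and PSMB7. Interferon and other signals replace these with the inducible subunits PSMB8, PSMB9 and PSMB10 of the immunoproteasome, which shape peptides for MHC class I. The core is opened by the 19S regulator, made of the PSMC ATPases and the PSMD subunits, or by the PSME activators, and liver cells use it to turn over short-lived enzymes and regulators.

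Messenger RNA was measured in HepaRG, a human liver progenitor cell line that yields hepatocyte-like cells. All groups share the same history: medium with insulin and hydrocortisone hemisuccinate for 2 weeks, then 2 more weeks with 2% DMSO added. The hepatocyte-like cells were then lifted off by mild trypsin treatment and seeded sparsely, which the labels name as the trigger of reprogramming. The groups are cells taken at 0 h and at 7 later times (1, 4, 8 and 12 h, then 16, 24 and 48 h), with 3 arrays each and 24 in all. Only 1 cell line was used and the labels do not say that replicates were separate cultures, so the p-values rest on a spread among these arrays that may be technical only. Every sample is a bulk extract, so fewer cells of a type and less RNA per cell cannot be told apart.

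Every array had been scaled to nearly the same mean (500.2 to 500.3 without the lowest and highest 2% of signals), so a change is relative to the other transcripts of the array. The summed signal of 11 measured hepatocyte markers was 449113 to 489593 at 0 h, which fits the labelled cell type, 258151 to 286743 at 16 h and 136531 to 158036 at 48 h, and all 11 were called lower at 16 h and at 48 h. The summed signal of 8 bile duct markers went from 10384 to 12998 at 0 h to 23607 to 27944 at 16 h. Most of that rise was KRT19, with means of 3357 at 0 h and 15332 at 16 h. CD24 (6651 and 6995) and SOX9 (517 and 568) hardly moved, and EPCAM and CFTR were too dim to be tested. Of the 6 bile duct markers tested, 4 were called higher at 16 h and none lower. The sum of 8 fibroblast and stellate cell markers went from 2014 to 2219.8 at 0 h to 3252 to 3847 at 16 h. Of these 8, DCN, LUM and ACTA2 were called higher at 16 h and none lower, with COL1A1 at -1.27 (SE 0.58, adjusted p = 0.08) and THY1 at -0.40 (SE 0.54, adjusted p = 0.601) on the log2 scale. For 6 leukocyte markers the sum was 502 to 746 at 0 h and 319 to 622 at 16 h, and for 6 endothelial markers 369 to 541 and 202 to 217. The 3'/5' signal ratio of ACTB, which is higher in degraded RNA, was 6.91 on 0 h replicate 2, 2.03 and 2.56 on the other 0 h arrays, and between 1.02 and 2.12 on the 21 later arrays. The part of these markers and of RNA quality in the proteasome changes was not tested, and counts without 0 h replicate 2 are given beside the main ones.

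Most proteasome mRNAs were higher by 12 to 16 h after replating and stayed so to 48 h. Against 0 h, 28 of the 41 genes were called higher and 1 was called lower at 16 h, the time with the most calls (limma, adjusted p under 0.05 over all 9966 genes). Among all genes tested, 18.2% were called higher and 21.1% lower at that time. The median log2 change at 16 h was 0.49 for the core and 0.56 for the regulators, against -0.16 for all genes tested. Of the 41 genes, 5 were called higher and passed 2-fold, as did 916 of all 9966 genes tested. Without 0 h replicate 2, the array with the high ACTB ratio, 24 genes were called higher at 16 h.

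At 1 h, 1 of the 41 genes was called higher and 2 lower (background 3.29% and 1.75%). An unadjusted limma p under 0.05 was reached by 17.1% of them and 16.5% of all genes, so this share was near the background. At 4 h the counts were 8 higher and 3 lower (13.3% and 18.3% of all genes). At 8 h 17 were higher and 4 lower (16% and 20.8%), and at 12 h 21 were higher and 1 lower (17.2% and 20.3%). After 16 h the counts held, with 26 higher and 1 lower at 24 h (20% and 19.1%) and 25 higher and 1 lower at 48 h (19.6% and 19.4%). In all, 21 genes were called higher at 16, 24 and 48 h alike and 6 were called in no comparison with 0 h. These 2 counts were not taken over all genes tested, so they have no background here. At 48 h 7 were called higher and passed 2-fold, as did 979 of all 9966 genes, and 21.6% of all genes did so in either direction. Without 0 h replicate 2 there were 4 higher calls at 4 h, 12 at 8 h and 16 at 12 h, then 21 at 24 h and 22 at 48 h. Centring each array on its median gave 1 higher and 1 lower at 1 h, 10 and 1 at 4 h, and 21 and 1 at 8 h.

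**Figure D1:**
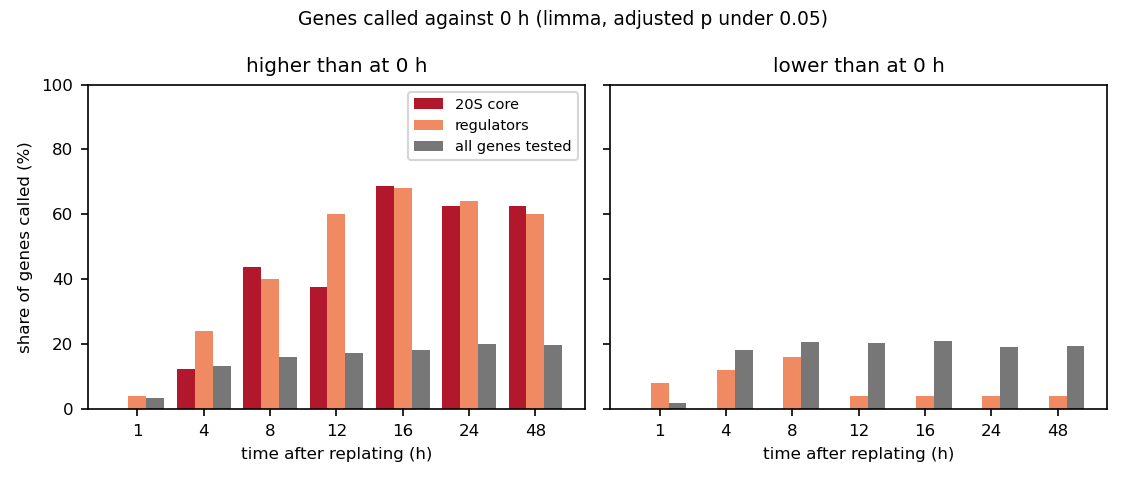
Share of genes called higher (left) or lower (right) than at 0 h at each later time, in percent, for the 16 core genes, the 25 regulators and all 9966 genes tested (limma, adjusted p under 0.05). From 8 h the bars of both proteasome groups stand above the grey bars for higher calls; no core gene was called lower at any time.

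A moderated F-test over the 7 comparisons with 0 h called 35 of the 41 genes (14 core genes and 21 regulators), against 58.9% of all genes tested. The 6 genes it did not call were PSMA2, PSMB4, PSMC2, PSMD3, PSMD6 and PSME4. The highest mean fell at 16 h for 17 genes, at 48 h for 15, at 24 h for 4, at 4 h for 2 (PSMD12 and PSME4), at 12 h for PSME3 and at 0 h for 2 (PSME1 and PSME3IP1). All 3 arrays lay above all 3 arrays of 0 h for 29 genes at 16 h and 24 genes at 48 h, and below them for 1 gene at each. Among all genes tested, 20.9% lay above and 26.6% below at 16 h, and 22.7% and 26.5% at 48 h.

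In the steps between neighbouring times few single genes were called. From 1 to 4 h 5 genes rose (PSMA5, PSMD2, PSMD8, PSMD12 and PSMG1) and none fell, when 12.8% of all genes were called higher and 12.7% lower, so the share of higher calls was near the background. From 4 to 8 h 5 rose (PSMB8, PSMC3, PSMD2, PSMD8 and PSME3) and none fell (background 5.53% and 5.39%), the largest being PSME3 with a log2 change of 1.23 (SE 0.15, adjusted p = 1.48e-06). In the steps from 8 to 12 h and from 12 to 16 h limma called 0 of the 41, while 11 (26.8%) and 6 (14.6%) passed an unadjusted p under 0.05, against 12.9% and 11.1% of all genes; the medians of the core in those steps were 0.10 and 0.19. All-gene backgrounds of adjusted calls there were 0.833% higher and 0.582% lower, then 0.442% and 0.291%. From 16 to 24 h PSMA5 fell (background 2.03% higher and 1.56% lower), by 0.50 on the log2 scale (SE 0.13, adjusted p = 0.0281), and leaving out either 16 h replicate 1 or 3 or any 24 h replicate ended this call. From 24 to 48 h limma called 0 of the 41 (background 1.35% higher and 2.1% lower), and 5 (12.2%) passed an unadjusted p under 0.05, against 13.9% of all genes.

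**Figure D2:**
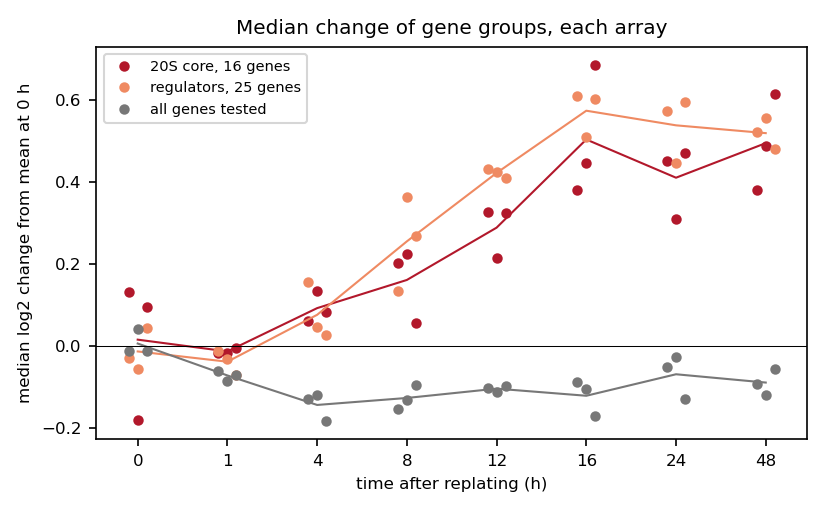
Median log2 change from the 0 h mean over the 16 core genes, the 25 regulators and all genes tested, one point per array, with lines through the means of the 3 arrays at each time. Both proteasome medians lie above 0.3 on every array from 16 h on, while the median of all genes lies below 0 on every array after 0 h.

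The median log2 changes of the core from 1 to 48 h were -0.02, 0.09, 0.09, 0.28, 0.49, 0.37 and 0.46, and those of the regulators -0.01, 0.05, 0.30, 0.36, 0.56, 0.48 and 0.54. The same medians over all genes tested were -0.09, -0.16, -0.15, -0.13, -0.16, -0.09 and -0.12. Centring each array on its median moved the all-gene value at 16 h from -0.16 to 0.12 and raised the core and regulator medians to 0.76 and 0.83, and it turned the regulator median at 1 h to 0.04.

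**Figure D3:**
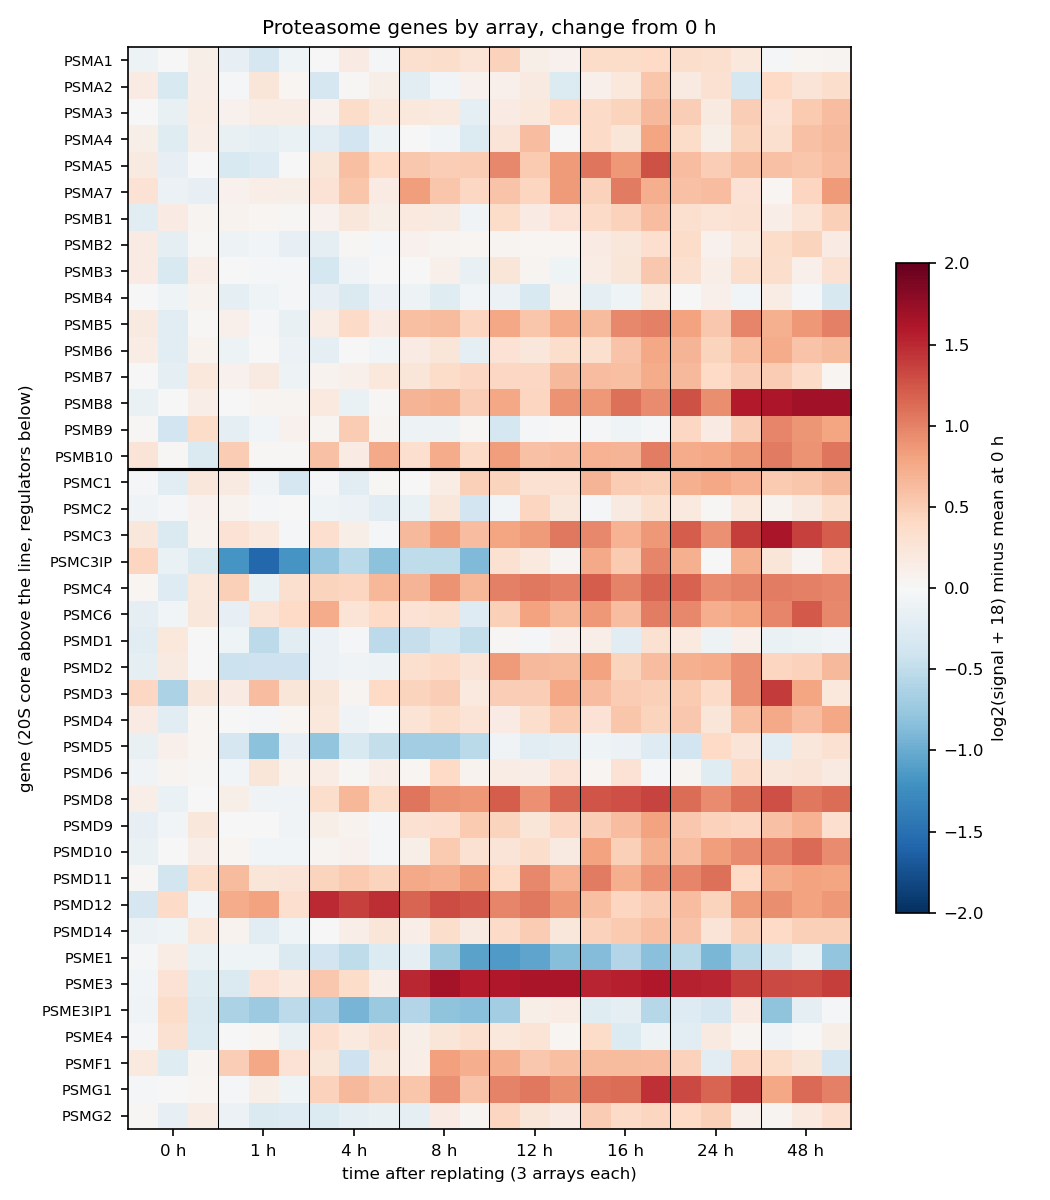
Each row is a gene and each column an array, ordered by time after replating, and the colour gives log2(signal + 18) minus the gene's mean at 0 h, cut at -2 and 2. Red spreads through most rows from 8 h; PSME3 and PSMD12 are the deepest red early, PSMB8 at 48 h, and PSME1 is blue from 8 h.

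Promoter windows from RefSeq (GRCh38.p14, 250 bases before to 50 after a start site) matched 36 of the 41 genes. The antioxidant response element, bound by NRF1 and NRF2 with small MAF proteins, has the core TGACNNNGC, which was searched on both strands. It was present in 13 of the 36 windows (36.1%), against 16.1% of all 27303 genes with a window and 19.9% of the 8116 genes tested that had one. Sequences are shown for the 3 genes with a match that had the smallest adjusted p in the F-test, and for PSMB9, an inducible subunit called at 48 h alone. Capitals mark the match. PSMG1 (chr21:39183452-39183701, minus strand), PSMD12 (chr17:67366578-67366827, minus strand) and PSMB9 (chr6:32853942-32854191, plus strand) are shown for the 250 bases before the start site, and PSMC4 (chr19:39971182-39971211, plus strand) for the 30 bases around its match, which lies after the start site in the transcribed part.
PSMG1: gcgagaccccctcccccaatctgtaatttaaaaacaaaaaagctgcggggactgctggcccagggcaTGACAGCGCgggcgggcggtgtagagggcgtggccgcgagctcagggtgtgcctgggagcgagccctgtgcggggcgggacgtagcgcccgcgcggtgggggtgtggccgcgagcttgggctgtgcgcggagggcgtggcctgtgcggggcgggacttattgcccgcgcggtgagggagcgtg
PSMD12: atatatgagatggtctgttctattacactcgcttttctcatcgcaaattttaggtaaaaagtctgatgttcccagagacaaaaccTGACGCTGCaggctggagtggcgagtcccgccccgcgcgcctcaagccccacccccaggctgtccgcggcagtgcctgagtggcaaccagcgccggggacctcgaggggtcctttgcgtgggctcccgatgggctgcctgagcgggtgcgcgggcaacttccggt
PSMB9: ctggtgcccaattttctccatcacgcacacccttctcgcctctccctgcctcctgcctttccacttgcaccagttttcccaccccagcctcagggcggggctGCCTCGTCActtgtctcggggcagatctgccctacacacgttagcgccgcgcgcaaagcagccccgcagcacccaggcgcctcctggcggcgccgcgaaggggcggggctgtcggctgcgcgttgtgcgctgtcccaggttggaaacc
PSMC4: acagaggccgGCTTGGTCActatggaggag

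The match begins at position -183 in PSMG1, -165 in PSMD12 and -148 in PSMB9, and at 28 in PSMC4, counted from the start site as 1. Among the 13 genes with a match were also PSMA4, PSMB3, PSMD1, PSMD3, PSMD5, PSMD9, PSME1, PSME4 and PSMG2. Of these, PSMD1, PSMD5 and PSME1 were called lower in a comparison with 0 h, and PSMB3 and PSME4 were called in none. The strongly raised PSMD8, PSMC3 and PSME3 had no match. The NF-Y box CCAAT stood in 19 of 36 windows (52.8%, against 44.6% of genes tested). The interferon-related motifs TTCNNNGAA and GAAANNGAA, which may overlap each other, stood in 7 (19.4%, against 8.99%) and 6 windows (16.7%, against 9.51%). PSMB8 held both of the latter, PSMB10 held GAAANNGAA, and PSMB9 held neither in this window. A match is a description of letters and not of binding.

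The alpha subunits, which form the outer rings of the core, had more higher calls at 16 h than at any other time. At that time 5 of 6 were called higher with a median log2 change of 0.48, and at 8 h 3 of 6 already were. PSMA5, the alpha-ring subunit with the largest change, gave signals of 2793, 2186 and 2439 at 0 h, 2905, 3739 and 3263 at 4 h and 4828, 3543 and 4443 at 12 h. It reached 5167, 4499 and 5962 at 16 h and stood at 3783, 3479 and 3743 at 24 h and 3715, 3636 and 3770.2 at 48 h. From 4 h on every array lay above all 0 h arrays, and the log2 change was 1.07 (SE 0.13, adjusted p = 6.93e-08) at 16 h and 0.59 (SE 0.13, adjusted p = 0.000592) at 48 h. PSMA7, another alpha subunit, went from 8036, 6051 and 5908 at 0 h to 9062, 13615 and 10950.0 at 16 h, a log2 change of 0.74 (SE 0.17, adjusted p = 0.000698); its probe set may cross-hybridize with similar transcripts, and a second probe set gave 1.10. PSMA1, PSMA3 and PSMA4 rose at 16 h by 0.38, 0.49 and 0.48, of which PSMA4 was no longer called without 0 h replicate 2 (adjusted p = 0.104) or without 16 h replicate 3 (adjusted p = 0.14). At 48 h PSMA1, also on a probe set open to cross-hybridization, was back at 0.02 (adjusted p = 0.929). Its other probe sets gave 0.21 and 0.28 at that time. PSMA3 and PSMA4 were at 0.48 and 0.52 at 48 h, and without 0 h replicate 2 the latter was not called (adjusted p = 0.0657). PSMA7 was at 0.44 at 48 h, a call that ended without 0 h replicate 2 (adjusted p = 0.137) or 3 (0.152) or 48 h replicate 2 (0.0812) or 3 (0.337). PSMA2 was not called at any time, with a log2 change of 0.29 (SE 0.16, adjusted p = 0.165) at 16 h, and its second probe set went the other way (-0.32).

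Among the beta subunits PSMB1 to PSMB7, 4 of 7 were called higher at 16 h and 3 of 7 at 48 h, with medians of 0.48 and 0.31. The genes called at 16 h were PSMB1 and the 3 constitutive catalytic subunits, and those called at 48 h were PSMB2, PSMB5 and PSMB6. PSMB5, the chymotrypsin-like subunit, gave 3715, 2838 and 3348 at 0 h, 3513, 3206 and 2953 at 1 h and 3639, 4286 and 3660.1 at 4 h. It then gave 4987, 5124 and 4442 at 8 h, 5621, 4814 and 5521 at 12 h and 5095, 6427 and 6608 at 16 h, followed by 5744, 4789 and 6446 at 24 h and 5383, 5998 and 6592 at 48 h. All arrays from 8 h on lay above all 0 h arrays, with a log2 change of 0.87 (SE 0.13, adjusted p = 3.11e-06) at 16 h and 0.86 (SE 0.13, adjusted p = 3.61e-06) at 48 h.

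PSMB6, the caspase-like subunit, gave 3200.0, 2469 and 3011 at 0 h, 2673, 2879 and 2655 at 1 h, 2549.6, 2863 and 2776 at 4 h and 3225, 3421 and 2543 at 8 h. Later signals were 3509, 3360.4 and 3676 at 12 h, 3591, 4295 and 4927 at 16 h, 4621, 3938 and 4371 at 24 h and 4801, 4260.4 and 4468 at 48 h. It moved later than PSMB5: the ranges overlapped with 0 h up to 8 h and were separate from 12 h on, and the first call came at 16 h with 0.56 (SE 0.13, adjusted p = 0.000886). PSMB7, the trypsin-like subunit, gave 4415, 3890.1 and 5166 at 0 h, 4733, 5056 and 4139.6 at 1 h, 4704, 4799 and 5153 at 4 h and 5296, 5784 and 5948 at 8 h. It then gave 5959.9, 5973 and 7022 at 12 h, 6888, 6784 and 7474 at 16 h, 6985, 5914 and 6299.7 at 24 h and 6336, 5814 and 4598 at 48 h. The change was 0.66 (SE 0.13, adjusted p = 9.62e-05) at 16 h and 0.31 (SE 0.13, adjusted p = 0.0553) at 48 h, where 1 of the 3 arrays fell back into the 0 h range.

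The non-catalytic beta subunits had smaller changes at 16 h. PSMB1 changed by 0.48 (SE 0.12, adjusted p = 0.00147) at 16 h. A second bright probe set of the gene gave 0.57, and a dim one went to -0.85. PSMB2 and PSMB3 were at 0.24 (adjusted p = 0.1) and 0.31 (adjusted p = 0.0729) at 16 h. PSMB4 gave 6364, 5981 and 6691 at 0 h and 5619, 5982 and 7239 at 16 h, a log2 change of -0.02 (SE 0.13, adjusted p = 0.912), while its second probe set gave 0.47. PSMB2 was called at 48 h (0.33 (SE 0.12, adjusted p = 0.0238)), a call that ended without 0 h replicate 2 (adjusted p = 0.149), 48 h replicate 1 (0.0685) or 48 h replicate 2 (0.118).

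The inducible catalytic subunits followed separate courses and were all 3 higher at 48 h. PSMB8, the inducible counterpart of PSMB5, gave 599, 650.1 and 721 at 0 h, 656, 678 and 681 at 1 h and 754, 595 and 663 at 4 h. It gave 1055, 1089 and 928 at 8 h, 1132, 887 and 1232 at 12 h and 1211, 1430.2 and 1284 at 16 h, then 1607, 1260.0 and 1996 at 24 h and 2051, 2140.1 and 2142 at 48 h. From 8 h every array lay above all 0 h arrays, and the 3 arrays of 48 h lay above every other array. The log2 change was 0.63 (SE 0.16, adjusted p = 0.00151) at 8 h, 0.98 (SE 0.16, adjusted p = 4.47e-06) at 16 h and 1.66 (SE 0.16, adjusted p = 1.3e-10) at 48 h, the largest of the core.

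PSMB9, the inducible counterpart of PSMB6, gave 661, 496 and 849 at 0 h, 573, 627 and 697 at 1 h, 676, 938 and 679 at 4 h and 606, 609 and 667 at 8 h. It gave 510.4, 638 and 653 at 12 h, 633, 617 and 645 at 16 h, 872, 736 and 924 at 24 h and 1303, 1219 and 1142 at 48 h. The arrays up to 24 h overlapped with 0 h, and those of 48 h lay above all of them with a change of 0.88 (SE 0.17, adjusted p = 9.72e-05). PSMB10, the inducible counterpart of PSMB7, gave 422, 356 and 283 at 0 h, 504, 356 and 357 at 1 h, 535, 393 and 603 at 4 h and 448, 594 and 461 at 8 h. It gave 637, 536 and 547 at 12 h, 578, 572 and 732 at 16 h, 599, 608 and 645 at 24 h and 733, 664 and 749.8 at 48 h. Its arrays were above all 0 h arrays from 8 h on, and the change grew from 0.50 (SE 0.19, adjusted p = 0.0409) at 4 h to 1.00 (SE 0.19, adjusted p = 6.64e-05) at 48 h.

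**Figure D4:**
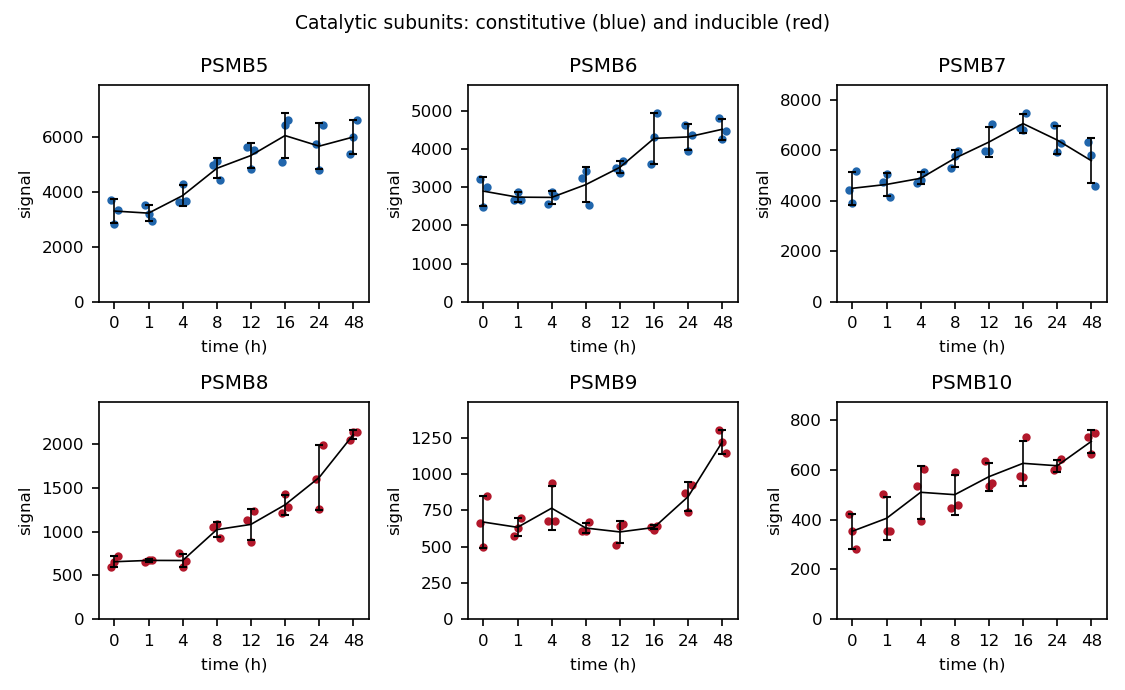
Signal (linear, in the array's own units) against time after replating for the constitutive catalytic subunits (blue points, top) and the inducible ones (red points, bottom), with 3 arrays per time and black lines and bars for the mean and SD. PSMB5 and PSMB7 have their highest mean at 16 h, whereas PSMB6, like PSMB8, PSMB9 and PSMB10, has its highest mean at 48 h.

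The balance of inducible to constitutive subunit was followed as a log2 ratio within each array, which shows unequal change and not which of the 2 moved. PSMB8 over PSMB5 shifted by 0.11 at 16 h, where the arrays overlapped with 0 h. At 24 h the shift was 0.49 and at 48 h it was 0.80, with every array above those of 0 h. PSMB9 over PSMB6 shifted by -0.41 at 12 h and -0.60 at 16 h, with all arrays below those of 0 h, and by 0.24 at 48 h, where the arrays overlapped. PSMB10 over PSMB7 shifted by 0.69 at 48 h, above all 0 h arrays. For each shift without overlap the exact two-sided permutation test gave p = 0.1, the smallest that 3 arrays against 3 allow, and no adjusted p over the 28 tests of such ratios was below 0.255.

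PSMB8 and PSMB9 lie side by side in the MHC class II region, with the peptide transporter gene TAP1 between them: on GRCh38.p14 PSMB8 spans chr6:32840717-32844679, TAP1 chr6:32845209-32853704 and PSMB9 chr6:32854192-32859851. TAP1 changed by 0.57 (SE 0.18, adjusted p = 0.00986) at 16 h and by 1.34 (SE 0.18, adjusted p = 1.68e-07) at 48 h. In the wider list of 11 antigen processing genes, 2 were called higher and 4 lower at 16 h and 1 higher and 3 lower at 48 h, with a median log2 change of -0.38 at 48 h. Those lower at 16 h included the peptide-trimming enzymes ERAP1 (-0.95) and ERAP2 (-0.79) and the MHC class I light chain B2M (-0.53). At 48 h TAP1 was therefore the single antigen processing gene of that list to be called higher, beside the 3 inducible subunits. The 41 genes lie on 17 chromosomes, and PSMB8 and PSMB9, 9512 bases apart, are the closest pair.

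The ATPases of the 19S base, which unfold the substrate, were mostly higher: 4 of 5 were called higher at each of 12, 16, 24 and 48 h, with medians of 0.65, 0.84, 0.82 and 1.01. PSMC3 gave 1439, 1004 and 1299 at 0 h, 1505, 1409 and 1213 at 1 h and 1554, 1344 and 1208 at 4 h, with overlapping ranges. It gave 1952, 2219 and 1912 at 8 h, 2139.8, 2233 and 2579 at 12 h and 2425, 2008 and 2272 at 16 h, then 2881, 2328 and 3245 at 24 h and 3860.3, 3209 and 2891 at 48 h. From 8 h every array lay above all 0 h arrays, and the change was 0.84 (SE 0.15, adjusted p = 2.76e-05) at 16 h and 1.40 (SE 0.15, adjusted p = 2.93e-09) at 48 h.

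PSMC4, another base ATPase, gave 753, 614 and 856 at 0 h, 1006, 1000.2 and 1169 at 4 h and 1186, 1384 and 1173 at 8 h. It then kept to one level, with 1496, 1544 and 1498 at 12 h, 1718, 1473 and 1667 at 16 h, 1693, 1427 and 1485 at 24 h and 1516, 1499 and 1466 at 48 h. All arrays from 4 h on exceeded those of 0 h, and the change was 0.51 (SE 0.15, adjusted p = 0.00769) at 4 h and 1.12 (SE 0.15, adjusted p = 2.16e-07) at 16 h. PSMC6 gave 979.5, 1066 and 1304 at 0 h, 1857, 1351 and 1463 at 4 h, 1357, 1390.1 and 928 at 8 h, 2043, 1706 and 2279.9 at 16 h and 2199, 2614 and 2174 at 48 h. Its 4 h arrays lay above those of 0 h, its 8 h arrays overlapped with them and all later arrays lay above, with a change of 0.84 (SE 0.17, adjusted p = 0.000141) at 16 h and 1.05 (SE 0.17, adjusted p = 5.2e-06) at 48 h.

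PSMC1 changed by 0.56 (SE 0.14, adjusted p = 0.00141) at 16 h and 0.72 (SE 0.14, adjusted p = 5.89e-05) at 24 h. PSMC2, the fifth ATPase measured, was not called: it gave 5658, 5897 and 6369 at 0 h and 5897, 6739 and 7491 at 16 h, a change of 0.16 (SE 0.14, adjusted p = 0.381), and its second probe set gave -0.53. Under median centring PSMC2 was called at 16 h, with 0.44 (adjusted p = 0.0261).

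Of the 12 PSMD genes, 9 encode subunits of the lid and the rest of the base, and 6 of these 9 were called higher at 16 h and 7 at 48 h, with medians of 0.53 and 0.72. PSMD8, a lid subunit, gave 2099, 1732 and 1898 at 0 h, 2063, 1819 and 1807 at 1 h and 2444, 3036 and 2473 at 4 h. It gave 3997, 3576 and 3506 at 8 h, 4446, 3614 and 4308 at 12 h and 4576, 4664 and 4861 at 16 h, then 4172, 3670.3 and 4114 at 24 h and 4683, 3977 and 4146 at 48 h. Every array from 4 h on lay above all 0 h arrays, with a change of 0.47 (SE 0.12, adjusted p = 0.00336) at 4 h and 1.30 (SE 0.12, adjusted p = 2.25e-10) at 16 h.

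PSMD12, also a lid subunit, had an early course. It gave 712, 1184 and 869.7 at 0 h, 1526, 1589 and 1147 at 1 h and 2582, 2344 and 2534 at 4 h, the highest of its time course. It came down to 2049.8, 2265 and 2171 at 8 h, 1798, 1902 and 1667 at 12 h and 1379.8, 1227 and 1295 at 16 h, and gave 1395, 1236 and 1650.2 at 24 h and 1726, 1597 and 1668 at 48 h. The change was 0.63 (SE 0.15, adjusted p = 0.008) at 1 h, 1.44 (SE 0.15, adjusted p = 3.59e-09) at 4 h and 0.52 (SE 0.15, adjusted p = 0.00653) at 16 h. PSMD12 was the single one of the 41 genes called higher at 1 h, although 1 array of 1 h lay within the 0 h range, and that call ended without 0 h replicate 1 (adjusted p = 0.0973), 1 h replicate 1 (0.0557) or 1 h replicate 2 (0.0697). Its 16 h call ended without 0 h replicate 1 (adjusted p = 0.083). A second, dimmer probe set did not show the early course: it gave -0.17 at 1 h, -0.12 at 4 h and 0.86 at 16 h.

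PSMD2, a scaffold subunit of the base, fell at 1 h by 0.41 on the log2 scale (adjusted p = 0.0361), from 2343, 2989 and 2637 to 1968, 1983 and 1989.8, with all 1 h arrays below all 0 h arrays. That call ended under median centring (adjusted p = 0.16), without 0 h replicate 2 (0.212) or 3 (0.0818), and without 1 h replicate 1 (0.103), 2 (0.0948) or 3 (0.082). PSMD2 then rose, to 4800.3, 4169 and 4120.4 at 12 h, a change of 0.72 (SE 0.12, adjusted p = 1.12e-05), and was at 0.79 at 24 h and 0.51 at 48 h. Among the other lid subunits PSMD11 changed by 0.89 (SE 0.17, adjusted p = 7.05e-05) and PSMD14, the deubiquitinase of the lid, by 0.53 (SE 0.12, adjusted p = 0.000725) at 16 h. The ubiquitin receptor PSMD4 was at 0.43 at 16 h and 0.72 at 48 h, from a probe set that may cross-hybridize; its 16 h call ended without 0 h replicate 2 (adjusted p = 0.0677). Of its other 3 probe sets, a dim one gave -0.90 and -0.78 at these times and the other two were above 0. PSMD11's second probe set gave 0.29 at 16 h and -0.40 at 48 h, and the mean of both was not called at 48 h (0.19, adjusted p = 0.528).

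PSMD3, a lid subunit, spread widely at 48 h (1721, 1124 and 745) and its change of 0.79 (SE 0.23, adjusted p = 0.00565) was not called without 0 h replicate 2 (adjusted p = 0.0992) or 48 h replicate 1 (0.0973). PSMD1 and PSMD6, scaffold and lid subunits, were not called higher at any time. PSMD6 gave 0.10 at 16 h and 0.22 at 48 h. PSMD1 was lower at 8 h, with 2004, 2179.6 and 1984 against 2366, 3226 and 2804 at 0 h and a change of -0.43 (SE 0.15, adjusted p = 0.0199), a call that ended under median centring (adjusted p = 0.212) and without 0 h replicate 2 (0.124) or 8 h replicate 1 (0.0555) or 3 (0.0599).

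The chaperones of 19S base assembly did not move as one. PSMD10, known as gankyrin, gave 662, 728 and 795 at 0 h, 792, 1049.7 and 898 at 8 h, 1287, 1018 and 1195 at 16 h, 1129.7, 1306 and 1413 at 24 h and 1482, 1606 and 1422 at 48 h. The arrays of 16, 24 and 48 h were above those of 0 h, with a change of 0.66 (SE 0.14, adjusted p = 0.000284) at 16 h and 1.03 (SE 0.14, adjusted p = 3.78e-07) at 48 h. PSMD9 rose by 0.64 (SE 0.13, adjusted p = 0.000198) at 16 h; with the mean of its probe sets it was not called (0.33, adjusted p = 0.379). PSMD5 fell first, from 724, 865 and 831 at 0 h to 488, 489 and 546 at 8 h, a change of -0.65 (SE 0.19, adjusted p = 0.00785) that was not called under median centring (adjusted p = 0.0625), and was at 0.10 at 48 h.

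PSMG1 and PSMG2 form a chaperone pair that builds the alpha ring. PSMG1 gave 1014, 1026 and 1064 at 0 h, 1015, 1119 and 973 at 1 h and 1432, 1635 and 1509 at 4 h. It gave 1528, 1957 and 1553 at 8 h, 2075, 2176 and 1997 at 12 h and 2234, 2269.5 and 2886 at 16 h, then 2605, 2339.9 and 2673 at 24 h and 1776, 2284 and 2087 at 48 h. Every array from 4 h on lay above all 0 h arrays, and the change was 0.55 (SE 0.13, adjusted p = 0.00156) at 4 h and 1.28 (SE 0.13, adjusted p = 1.42e-09) at 24 h. Its partner PSMG2 rose by 0.44 (SE 0.13, adjusted p = 0.00498) at 16 h and was at 0.20 (SE 0.13, adjusted p = 0.223) at 48 h. POMP, a maturation factor of the core without a PSM symbol, rose by 0.57 (SE 0.14, adjusted p = 0.00165) at 16 h and was at 0.05 (SE 0.14, adjusted p = 0.83) at 48 h.

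The activators PSME3 and PSME1 moved in opposite directions. PSME3, which forms a nuclear cap known as PA28-gamma, gave 516, 662 and 454 at 0 h, 437, 659 and 615 at 1 h and 791, 699.7 and 589.8 at 4 h. It stood at 1554, 1741 and 1633 at 8 h, 1661, 1699 and 1706 at 12 h, 1585, 1609 and 1673 at 16 h, 1599, 1586 and 1432 at 24 h and 1367, 1353 and 1434 at 48 h. The arrays from 8 h on form a level of their own, with a change of 1.58 (SE 0.15, adjusted p = 4.41e-10) at 8 h and 1.34 (SE 0.15, adjusted p = 9.87e-09) at 48 h. The probe set used may cross-hybridize. Of the other 3, 1 gave 1.48 at 8 h and 1.75 at 16 h, another gave 0.16 and 0.20, and the dimmest 0.05 and 0.33.

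PSME1, a subunit of the interferon-inducible cap PA28-alpha/beta, gave 5122, 5747 and 4738 at 0 h, 4888, 4900.0 and 4238 at 1 h and 3968, 3637 and 4292 at 4 h. It fell to 4568, 3153 and 2471 at 8 h and 2363, 2489 and 2853 at 12 h, and gave 2827, 3447 and 2894 at 16 h, 3549, 2742 and 3555 at 24 h and 4129, 4709 and 2996 at 48 h. All arrays from 4 h on lay below all 0 h arrays, with a change of -1.01 (SE 0.17, adjusted p = 1.03e-05) at 12 h and -0.77 (SE 0.17, adjusted p = 0.000409) at 16 h. By 48 h the change was -0.42 (SE 0.17, adjusted p = 0.0483), a call that ended with a pseudocount of 1 (adjusted p = 0.0536), with no filter, under median centring and without 0 h replicate 1 or 2 or 48 h replicate 1 or 3. Within arrays PSME1 over PSME3 shifted by -0.74 at 4 h, -2.63 at 12 h and -1.75 at 48 h, with all arrays from 4 h on below those of 0 h (exact permutation p = 0.1 each). PSME1 was the single one of the 41 genes called lower from 12 h on.

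PSME4, the large activator PA200, gave 504, 637 and 422 at 0 h, 508, 526 and 461 at 1 h, 654, 588 and 641 at 4 h and 557, 611 and 647 at 8 h. It gave 599, 627 and 527 at 12 h, 667, 424 and 478 at 16 h, 443, 587 and 536 at 24 h and 488, 511 and 558 at 48 h. It was not called in any comparison, with changes between -0.04 and 0.28. Dimmer probe sets of PSME4 were less flat: one gave -0.73 at 24 h, and another -0.75 at 12 h and -0.83 at 48 h. PSMF1, an inhibitor of the 20S core, was at 0.62 (SE 0.21, adjusted p = 0.0198) at 16 h and 0.09 (SE 0.21, adjusted p = 0.783) at 48 h; its second probe set gave -0.38 at 16 h, and the call ended without 0 h replicate 2 (adjusted p = 0.101).

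**Figure D5:**
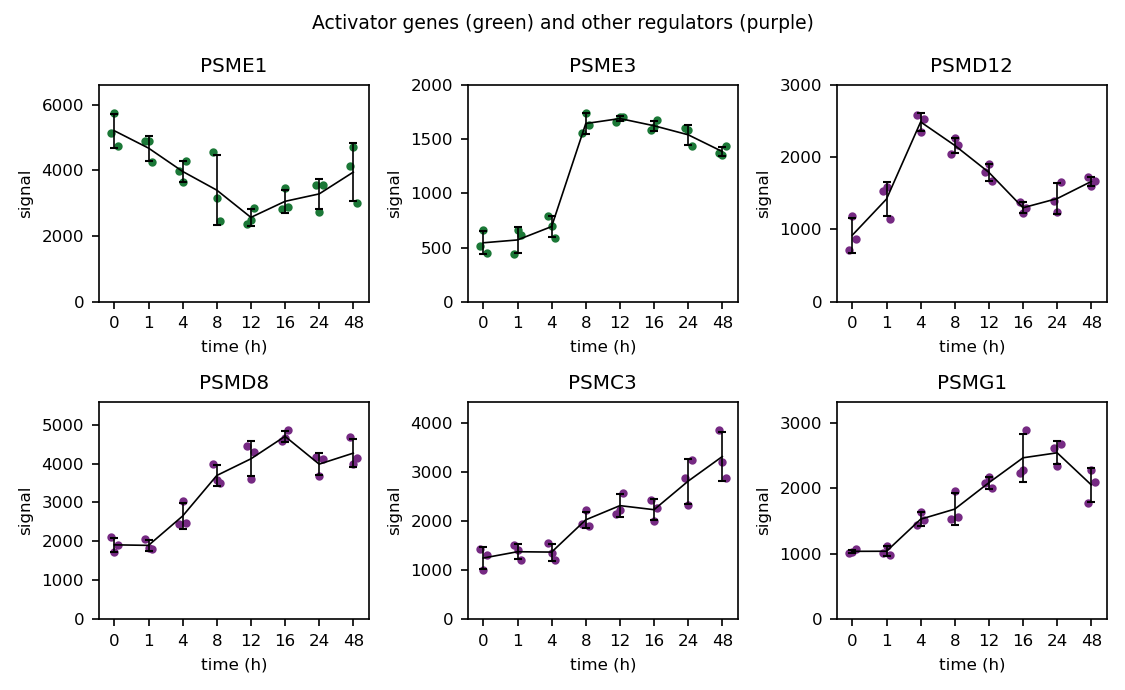
Signal (linear, in the array's own units) against time after replating for the activators PSME1 and PSME3 (green points) and for PSMD12, PSMD8, PSMC3 and PSMG1 (purple points), with 3 arrays per time and black lines and bars for the mean and SD. PSME3 steps up between 4 and 8 h while PSME1 comes down to 12 h, and PSMD12 has its top at 4 h.

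The recombination factor PSMC3IP, included through its symbol, gave 328, 217 and 193 at 0 h, 95.7, 69.3 and 96 at 1 h, 164, 164 and 122 at 8 h and 419, 355 and 488 at 16 h. All 1 h arrays lay below those of 0 h and all 16 h arrays above them, with changes of -1.31 (SE 0.25, adjusted p = 0.000672) and 0.75 (SE 0.25, adjusted p = 0.0171). The probe set used may cross-hybridize, and a second one gave -0.83 at 1 h and 1.42 at 16 h. In a limma fit on 0 h and 1 h alone the 1 h call ended (adjusted p = 0.0576). The 16 h call ended without 0 h replicate 2 (adjusted p = 0.0586) or 3 (0.0893) or 16 h replicate 3 (0.0837). PSME3IP1 was lower at 4 h, -0.77 (SE 0.24, adjusted p = 0.0108), a call that also ended without 0 h replicate 2 (adjusted p = 0.0852), and was at -0.33 at 16 h. Without these 2 genes, 27 of 39 were called higher and 1 lower at 16 h.

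Of the 17 genes with several probe sets, 9 had log2 changes of 1 sign in all of them at 16 h and 8 at 48 h. Across the 24 arrays, 39 of the 41 genes correlated positively with the median of the others, and 30 did so with r over 0.5, as a description of arrays that share their time, scaling and RNA. PSMB5 followed that median most closely (r = 0.953), followed by PSMC4 (0.921) and PSMD8 (0.919), whereas PSME1 ran against it (r = -0.622) and PSMD12 was nearly unrelated (0.038). The median r between pairs was 0.573 in the core and 0.39 in the regulators.

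Transcription factors of proteasome genes gave mixed values. NFE2L1, which encodes NRF1, the factor that raises proteasome genes when the proteasome is impaired, was lower, with -0.76 (SE 0.19, adjusted p = 0.00167) at 16 h and -0.83 (SE 0.19, adjusted p = 0.000646) at 48 h. Of 8 such regulators, 2 were called higher and 3 lower at 16 h: the small MAF gene MAFF, at 2.31 (SE 0.30, adjusted p = 1.05e-07), and NFE2L3, at 1.17 (SE 0.34, adjusted p = 0.0062), rose, and the repressor BACH1 was among those that fell, at -0.98 (SE 0.25, adjusted p = 0.00189). MAFF had its highest change at 1 h, with 5.35. Of 17 NRF2 target genes, 3 were called higher and 5 lower at 16 h, with SLC7A11, the cystine transporter, at 1.65 (SE 0.27, adjusted p = 9.16e-06), the glutathione enzyme GCLC at -1.99 (SE 0.14, adjusted p = 1.74e-13) and the export pump ABCC2 at -0.85 (SE 0.18, adjusted p = 0.000352).

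Partners of the proteasome moved with it in part. Of 14 associated and assembly factors outside the PSM symbols, 6 were called higher and 2 lower at 16 h, with a median log2 change of 0.34. The ubiquitin receptor ADRM1 changed by 0.94 (SE 0.16, adjusted p = 1.36e-05) and the shuttle factor RAD23B by 0.76 (SE 0.20, adjusted p = 0.00216), while ZFAND5, an activator of the 26S particle, fell, at -0.87 (SE 0.13, adjusted p = 2.16e-06). Of 3 ubiquitin and E1 genes measured, UBB was called lower, with -0.69 (SE 0.13, adjusted p = 4.78e-05) at 16 h. Of 19 E2 conjugating enzymes, 6 were higher and 2 lower at 16 h, led by UBE2E1, at 1.63 (SE 0.15, adjusted p = 8.12e-11), UBE2S, at 1.29 (SE 0.18, adjusted p = 3.16e-07), and UBE2N, at 1.23 (SE 0.13, adjusted p = 5e-09), the last from a probe set open to cross-hybridization. Of 12 genes of VCP-dependent and endoplasmic reticulum-associated degradation, 3 were higher and 4 lower, with UFD1 at 1.22, SEL1L at -1.56 and HERPUD1 at -1.62.

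Other large assemblies gave a scale for these counts. All 7 subunits of the CCT chaperonin measured, which fold actin and tubulin, were called higher at 16 h and at 48 h, with medians of 0.93 and 1.03; CCT5 was at 1.62 and CCT4 at 0.99 at 16 h. Of 54 ribosomal protein genes, 31 were called higher and none lower at 16 h, and 10 higher and 4 lower at 48 h, with medians of 0.37 and 0.13. The proteasome genes had 28 of 41 and 25 of 41 called higher at the same times, with medians of 0.53 and 0.51. These lists were compared by counts and medians, with no test between them.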

How the data were processed

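Gene expression was measured on 24 Affymetrix arrays, 3 at each of 8 times. The deposited values are intensities, 1 linear signal per probe set, and MAS5 is the tool named per the submitters' processing notes. Which version and which scaling target were used is not given in the sources used here. The log2 scale was taken after adding 18, near the 20th percentile of all deposited signals; folds on this scale understate changes of dim genes. Of 22283 probe sets, 68 controls, probe sets with several symbols or none, and those not above the 40th percentile on at least 3 arrays were left out, and 1 probe set a gene, that of highest mean, was kept (9966 genes). Group means were fitted on all 24 arrays with limma 3.58.1 in R 4.3.3 (trended eBayes, 16 residual degrees of freedom), with Benjamini-Hochberg adjustment over the 9966 genes and a threshold of 0.05. The code was tested on simulated data. Ratios within arrays were tested by exact permutation in Python 3.11.15, and figures were drawn with matplotlib 3.10.9. The number of arrays, 3 a time, limits the precision.

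The members and all gene lists were chosen with earlier results of these data known. Every member could be named. Values on single arrays are given for the catalytic subunits, the activators and members called and past 2-fold. They are also given for the 4 largest rises and falls among called members in the core and in the regulators at the time with the most calls. For PSMA5, PSMC4, PSMC6, PSMD10 and PSMC3IP the arrays of only some of the times are printed. From the other lists, up to 3 called genes with the largest changes were named, and a few more were picked with their values known. The settings varied were the pseudocount, quantile normalization, median centring, no filter and a stricter one, averaging probe sets of a gene, fits on the compared times alone, a replicate block, and leaving out each array. The set without PSMC3IP and PSME3IP1 was added after seeing the data. Protein identity between catalytic subunits was not analysed here.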

Additional observations from a re-analysis of the deposited data

How the results depend on the processing

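For members called against 0 h, these settings moved a count by more than 1.5 times or a median by more than 1 SD between arrays; the cause was not tested. Lower calls at 48 h numbered 0 with a pseudocount of 1, with no filter, with median centring, with the mean of probe sets and with only the 2 times in the fit. Median centring gave 1 lower call at 1, 4 and 8 h and 0 at 24 h. It gave regulator medians from 1 to 48 h of 0.043, 0.18, 0.47, 0.56, 0.83, 0.69 and 0.80, the first with the sign turned, and core medians from 4 to 48 h of 0.22, 0.26, 0.48, 0.76, 0.58 and 0.72. Quantile normalization gave regulator medians of 0.31, 0.57 and 0.46 at 12, 24 and 48 h. The mean of probe sets gave 0 higher calls at 1 h, 3 lower calls at 12 h and regulator medians of 0.20 at 8 h, 0.61 at 24 h and 0.45 at 48 h. Fits on the 2 times alone gave 0 higher and 0 lower calls at 1 h, 11 higher calls at 8 h and 0 calls from 16 to 24 h. Asking for 2-fold as well left 0, 1, 2, 3, 5, 6 and 7 higher calls from 1 to 48 h. Among all 9966 genes tested such higher calls numbered 221, 757, 838, 869, 916, 1039 and 979. It left 1 lower call at 1 h and 0 at 4, 8, 16, 24 and 48 h. In the steps from 1 to 4, 4 to 8 and 16 to 24 h it left 0, 1 and 0 calls. Without PSMC3IP and PSME3IP1, lower calls numbered 1 at 1 h and 1 at 4 h, and the regulator median at 24 h was 0.61.

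Leaving out 1 array at a time gave 0 to 1 higher and 1 to 2 lower calls at 1 h, 4 to 7 higher and 1 to 3 lower calls at 4 h, 2 to 5 lower calls at 8 h and 0 to 1 lower calls at 48 h. The lowest counts at 4 and 8 h came without 0 h replicate 2. Regulator medians ranged from -0.0058 to 0.12 at 4 h, 0.20 to 0.33 at 8 h, 0.33 to 0.47 at 12 h, 0.50 to 0.63 at 16 h, 0.40 to 0.69 at 24 h and 0.46 to 0.65 at 48 h. Calls ranged from 2 to 5 in the step from 4 to 8 h, with 2 without 4 h replicate 3, from 0 to 1 from 16 to 24 h and from 0 to 1 from 24 to 48 h. Higher calls at 16 h ranged from 24 to 30. The replicate numbers showed no clear pairing of 0 h arrays with later ones. None of 21 correlations between a 0 h array and a later array of the same number was over 0.1. Of 24 arrays, 12 correlated best with their own number, a count not set against a chance level. With the replicate number as a block, 28 genes were called higher at 16 h, 25 higher at 24 h and 5 lower at 8 h, and 4 were called from 1 to 4 h, against 28, 26, 4 and 5 without it.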
